A study of Mus musculus with 48 samples.

Results

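The second week of suckling was followed in mouse duodenum by comparing 3 samples taken at 2 weeks after birth with 3 taken at day 8. These are 6 of the 48 samples of a series that covers duodenum and ileum at 8 ages, and they were chosen by their labels alone. All 6 came from C57Bl/6J mice, of both sexes per the labels, which were kept with the dam until day 21, so both groups were still suckling. The labels give the housing as standard germ-free, and no treatment or altered gene is given. Each sample was a 2 cm piece of duodenum beginning at the pylorus, from which total RNA was sequenced. The labels number the samples of an age 1 to 3 without stating litters. P-values of the main test therefore measure the spread between samples of an age, taken over 20 duodenum samples of several ages. The question put to them was which genes change in the proximal bowel between the end of the first and the end of the second postnatal week.

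The duodenum of a suckling mouse takes up fat, lactose and whole proteins of milk. Enterocytes, the absorptive cells of the villi, carry lactase and peptidases on their brush border and take in maternal immunoglobulin and other proteins by endocytosis. Crypts between the villi hold the dividing stem and progenitor cells, and Paneth cells, which secrete antimicrobial peptides, appear in them during these weeks. Glucocorticoid hormone in the blood rises late in suckling, before weaning replaces lactase with sucrase.

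Total counts were 46719526 to 48920343 in the day 8 samples and 27547646 to 47190126 in the week 2 samples, with 24094 to 25995 genes detected. Mitochondrial transcripts took 21.7% to 24.6% of counts at day 8 and 16.5% to 21.0% at week 2. Week 2 sample 1 stood apart. Chi-square per gene between libraries was 76.9 and 77.4 for the pairs that included it, against 15.1 for week 2 samples 2 and 3 and 14.4 to 16.2 for the day 8 pairs. Its sum over the listed fat absorption genes was 89020 CPM (counts relative to the scaled library total), against 48740 and 54860 CPM in the other week 2 samples. Its sum over the listed cell cycle genes was 1464 CPM against 2386 and 2158 CPM. Counts over lists are therefore also given without it for most lists. Xist, the RNA of the inactive X chromosome, stood at 718 to 1203 CPM in 5 samples and at 2.19 CPM in week 2 sample 3. The Y-linked gene Ddx3y stood at 57.6 CPM in week 2 sample 3 and had no count in the other 5, so sex was not balanced between the ages.

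**Figure D1:**
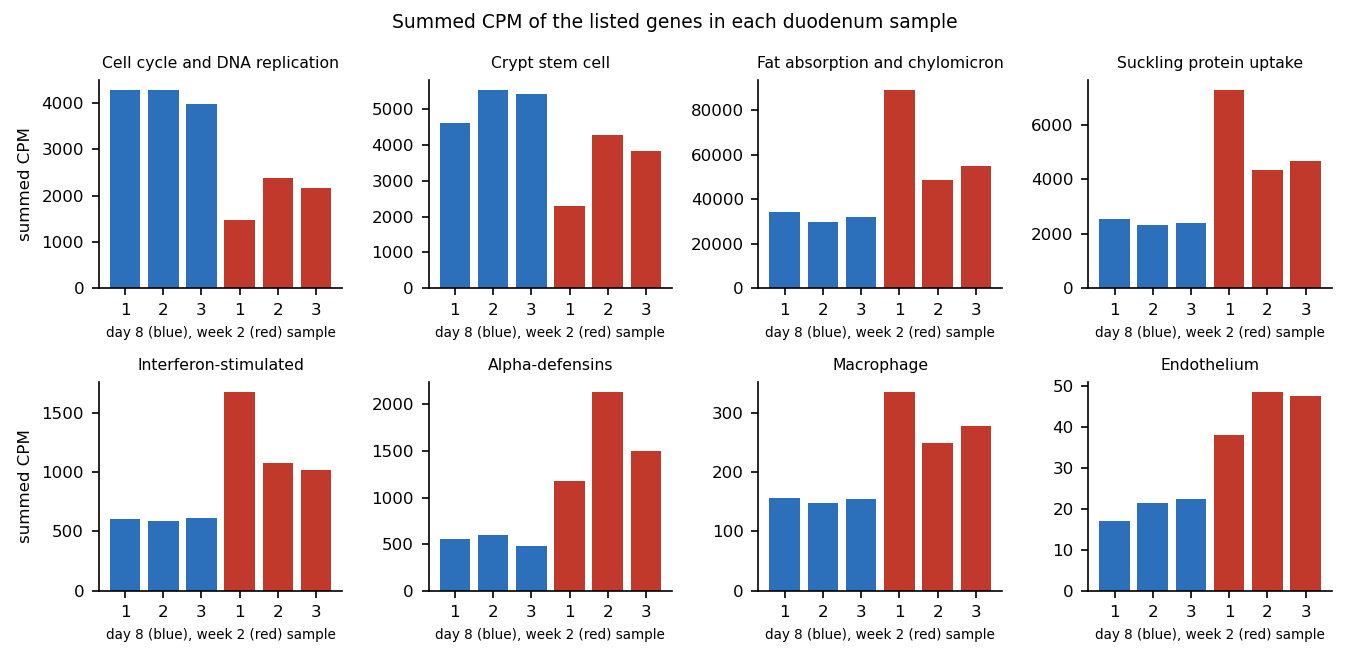
Summed CPM of 8 gene lists (vertical axes, from 0) in each of the 6 duodenum samples (bars, blue day 8, red week 2). The macrophage sum rests largely on Mertk and Csf1r. Week 2 sample 1 has the highest fat absorption, milk protein uptake and interferon sums and the lowest cell cycle and crypt stem cell sums of its group, while all 3 week 2 samples lie on the same side of the day 8 samples in each panel.

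The tissue label was checked against defining genes. Pdx1, a transcription factor of the proximal bowel, stood at 14.1 to 14.2 CPM at day 8 and, at week 2, at 18.2, 3.96 and 13.6 CPM. Fabp6, a bile acid binding protein of the ileum, did not exceed 0.0673 CPM in any sample. The labels call the tissue whole thickness, yet the muscle genes Acta2, Myh11, Tagln and Actg2 reached at most 2.74, 1.73, 1.90 and 0.934 CPM. Mylk, another listed muscle gene, was far higher, at 149 to 171 CPM at day 8 and 286.5 to 383 CPM at week 2. Of 12 smooth muscle genes tested, Mylk and Des rose and Smtn fell. Enterocyte genes were abundant, with Vil1 at 649 to 740 CPM at day 8 and 851 to 1079 CPM at week 2. Sums over 12 pancreatic acinar genes were 14.5 to 39.1 CPM at day 8 and 27.8 to 36.0 CPM at week 2. Sums over Brunner gland genes were 15.9, 99.7 and 29.5 CPM at day 8 and 14.2 to 17.4 CPM at week 2. None of the tested acinar, islet, stomach or Brunner gland genes was called. The adipocyte gene Adipoq had no count in any of the 6. The 3 tested adipose genes were called, with log2 fold changes of 1.58 for Fabp4, 0.95 for Lipe and -2.66 for Plin1. Adipose genes summed to 20.9 to 25.3 CPM at day 8 and 38.55 to 53.8 CPM at week 2.

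By edgeR's quasi-likelihood test, 5771 of 20608 genes (28.0%) differed between the ages at an adjusted p under 0.05, and these are the genes named as called. Of them 2740 rose (13.3% of genes tested) and 3031 fell (14.7%). Changes over 2-fold numbered 1016 up and 451 down. For 5667 of the called genes the values of the 3 day 8 and 3 week 2 samples did not overlap. Calling itself favours genes whose groups lie apart. The same count over all genes tested is not given, so this is not separate support. The spread in this test came from the 20 duodenum samples that the authors kept in their own normalized table. The other 4 are the day 4 samples and day 6 sample 3, which went against its region label in earlier results on these data. With all 24 in the model the count was 1348, or 6.72% of 20053 genes (3.92% higher, 2.80% lower). Every one of those was among the 5771. Which of the 4 moves the count was not tested. Of 186 called genes in the set chosen by the naming rule, 107 were also called there. Leaving out week 2 sample 1 gave 3818 (18.3%, with 10.9% higher and 7.38% lower), of which 3657 were shared. Rises were 47.5% of calls here and 58.8% to 62.0% when any single sample was left out, so no balance between rises and falls is read from them.

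**Figure D2:**
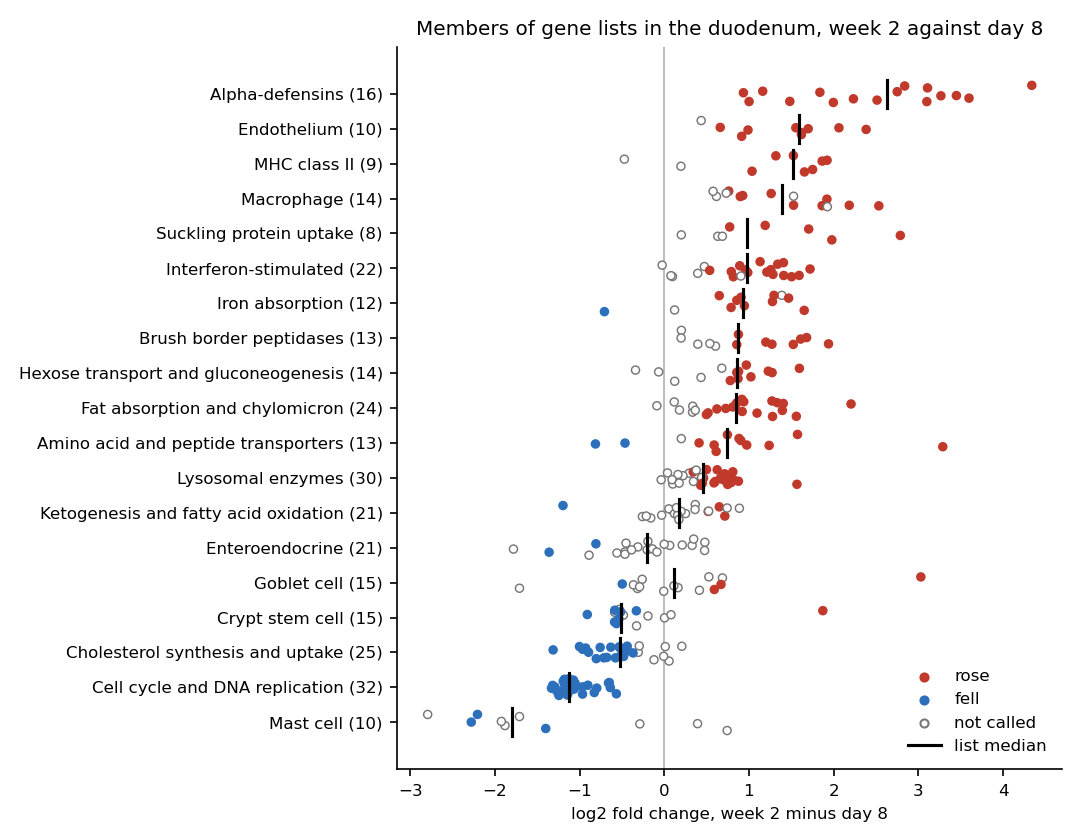
Log2 fold change from day 8 to week 2 (horizontal axis) of the members of 19 gene lists (rows, number tested in brackets). Each point is a gene, filled where called, and the black bar is the list median. All 16 alpha-defensins rose and all 32 cell cycle genes fell, with medians of 2.63 and -1.12, against a median of -0.01 over all genes tested.

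Enzymes of the brush border rose. Of the 4 disaccharidase genes, which split milk and dietary sugars, 3 were called, all higher, and the same number was called without week 2 sample 1. Lct, the lactase gene, stood at 1079, 951 and 920 CPM at day 8 and at 3108, 2115 and 2304 CPM at week 2. The groups were well apart, and the log2 fold change was 1.38 ± 0.24 (SE, n = 3 per age, adjusted p = 0.000447). Sis, the sucrase-isomaltase of the weaned bowel, went from 26.5, 22.7 and 25.2 CPM to 156, 116 and 126 CPM, a log2 fold change of 2.45 ± 0.21. Treh, which splits trehalose, rose by 1.21 ± 0.32 on the log2 scale. Mgam, the maltase-glucoamylase, did not pass, at 343 to 371 CPM and 380 to 431 CPM (log2 0.19 ± 0.20). So lactase and sucrase both rose while the mice were still on milk. Sucrase at week 2 was still far under its mean of 3524 ± 322 CPM (SD, n = 3) at week 3.

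Of 13 tested brush border peptidases, which cut peptides at the villus surface, 8 rose and none fell, with a median log2 fold change of 0.88. Without week 2 sample 1 the count was also 8, and with all 24 duodenum samples it was 3. Ace, the angiotensin-converting dipeptidase, stood at 521, 468 and 523 CPM at day 8 and 1831, 1160 and 1262 CPM at week 2, a log2 fold change of 1.52 ± 0.27. Ggt1, which cleaves glutathione outside the cell, rose by 1.68 ± 0.31, Dpep1 by 1.61 ± 0.35 and the meprin subunit gene Mep1a by 1.20 ± 0.26. Week 2 sample 1 had the highest value of its group for each of these.

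Peptide and amino acid carriers mostly moved the same way. Of 13 tested, 10 rose and 2 fell (7 and 1 without week 2 sample 1, and 4 and 1 with all 24 duodenum samples). Slc15a1, the apical peptide transporter PEPT1, rose from 41.3, 38.1 and 36.8 CPM to 147, 94.9 and 96.7 CPM (log2 1.57 ± 0.28). Slc7a9, the light chain of the cystine and dibasic amino acid carrier, rose by 0.97 ± 0.17. Slc7a15 had one of the largest rises of the step, from 0.754, 0.783 and 0.964 CPM to 9.22, 9.25 and 5.65 CPM (3.29 ± 0.36). Slc1a5, a glutamine carrier of many dividing cells, fell from 64.8 to 70.03 CPM to 28.0, 41.9 and 43.6 CPM. A further peptide transporter gene outside that list, Slc15a2, had the largest fall among called genes that did not overlap and reached a mean of 5 CPM. It went from 9.28, 6.60 and 3.59 CPM to 0.393, 0.252 and 0.521 CPM, a log2 fold change of -3.97 ± 0.64 (adjusted p = 0.0004).

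Hexose handling followed, with 9 of 14 genes higher and none lower (9 without week 2 sample 1, 8 with all 24 duodenum samples). G6pc, which releases free glucose in the last step of gluconeogenesis, stood at 69.3, 69.2 and 77.0 CPM at day 8 and 262, 182 and 193 CPM at week 2 (log2 1.60 ± 0.21). Slc2a2, the basolateral glucose carrier GLUT2, rose by 1.02 ± 0.16. Fbp1, another gluconeogenic enzyme, rose by 1.23 ± 0.22, and Tkfc, which phosphorylates products of fructose breakdown, by 0.86 ± 0.13.

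Genes of fat absorption and lipoprotein assembly formed one of the largest rising groups. Of 24 tested, 18 rose and none fell, with a median of 0.85 (17 without week 2 sample 1, 11 with all 24 duodenum samples). Apoa4, an apolipoprotein of chylomicrons, the particles that carry absorbed fat, stood at 15380, 13430 and 14310 CPM at day 8. At week 2 it stood at 51620, 23770 and 27000 CPM, so sample 1 was far above the other two and all were above day 8 (log2 1.28 ± 0.26, adjusted p = 0.00136). Apob, the structural protein of chylomicrons, went from 4423, 3874 and 4200 CPM to 9848, 7716 and 8565 CPM (log2 1.10 ± 0.21). Pnliprp2, a pancreatic lipase-related enzyme, rose by 2.21 ± 0.35 and was the one gene of these with its lowest week 2 value in sample 1, at 15.3 CPM against 31.0 and 23.8 CPM. The paired sterol exporters Abcg5 and Abcg8 rose by 1.41 ± 0.22 and 1.56 ± 0.27. Fabp1 and Fabp2, the abundant fatty acid binding proteins, did not pass, with log2 fold changes of 0.12 ± 0.16 and 0.34 ± 0.17.

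Oxidation of fatty acids and ketone formation were mostly not called, with 3 of 21 genes higher and 1 lower, a share of 4 in 21 that is under the 28.0% of all genes (2 and 1 without week 2 sample 1). Cpt1a, which brings fatty acids into mitochondria, stood at 520, 435 and 466 CPM and then at 509, 450 and 485 CPM, and the groups overlapped. Angptl4, an inhibitor of lipoprotein lipase, fell by 1.20 ± 0.31 on the log2 scale, a call lost without week 2 sample 3.

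Cholesterol synthesis and uptake moved down. Of 25 genes, 18 fell and none rose, with a median of -0.53 (13 without week 2 sample 1, 7 with all 24 duodenum samples). Mvk, mevalonate kinase, stood at 6.51, 6.24 and 6.30 CPM at day 8 and 2.43, 3.53 and 3.32 CPM at week 2 (log2 -1.001 ± 0.18, adjusted p = 0.000447). Mvd, a later step of the same path, had a log2 fold change of -0.89 ± 0.18. Srebf2, the transcription factor that drives these genes, fell from 98.1, 95.4 and 88.5 CPM to 61.1, 69.3 and 62.6 CPM. The sterol regulatory letters TCACNCCAC occurred in either strand of the 250 bases before the start for 1 of the 17 listed genes with a RefSeq window, and in 1.05% of all 32851 windows.

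Genes of whole-protein uptake by suckling enterocytes rose in 5 of 8 cases, 3 of them receptors, with the same count without week 2 sample 1 and 3 with all 24 duodenum samples. Fcgrt, the receptor that carries milk immunoglobulin across the epithelium, stood at 1656, 1523 and 1621 CPM at day 8 and 5145, 2600 and 2984 CPM at week 2 (log2 1.19 ± 0.25). Cubn, the scavenger receptor cubilin, went from 187, 164 and 159 CPM to 610, 501 and 516 CPM (1.71 ± 0.28). Dab2, the adaptor that couples such receptors to clathrin, went from 113, 122 and 138 CPM to 584, 431 and 422 CPM (1.98 ± 0.29). Lrp2, the partner receptor megalin, was far scarcer, at 0.317 to 0.762 CPM and then 3.00 to 3.43 CPM (2.79 ± 0.53), and 3.42 without day 8 sample 3. Amn and Mamdc4, of the same uptake machinery and named after their values were seen, were not called (0.63 and 0.69). Prdm1, the repressor that keeps enterocytes in the suckling state, rose by 0.77 ± 0.18.

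Lysosomal enzymes, which digest what is taken in, rose with them, 19 of 30 tested and none lower, at a smaller median of 0.46. The count was 14 without week 2 sample 1 and 1 with all 24 duodenum samples. Ctsl, a cysteine protease of lysosomes, went from 558, 629 and 739 CPM to 2078, 1791 and 1710 CPM (log2 1.57 ± 0.25). Lamp2, a membrane protein of lysosomes, rose by 0.81 ± 0.14.

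Iron absorption genes rose in 9 of 12 cases and 1 fell (5 and none without week 2 sample 1, 4 and none with all 24 duodenum samples). Slc46a1, a proton-coupled carrier of folate and heme, stood at 28.5, 21.6 and 27.9 CPM and then at 111, 57.2 and 72.0 CPM (log2 1.65 ± 0.28). Heph, the ferroxidase that works with the exporter, rose by 0.86 ± 0.18. Cybrd1, the apical iron reductase, went from 35.2 to 37.3 CPM to 137, 70.4 and 85.2 CPM, a call lost without week 2 sample 1. The exporter Slc40a1 itself, ferroportin, did not pass (adjusted p = 0.068), although its week 2 values of 1241, 675 and 892 CPM all lay above the 351 to 374 CPM of day 8. Tfrc, the transferrin receptor of dividing cells, fell from 357 to 408 CPM to 159, 272 and 265 CPM, also a call lost without that sample. None of the 8 tested calcium and vitamin D genes was called. S100g, the calcium-binding protein of the duodenum, stood at 58.3 to 68.4 CPM and then at 137, 95.2 and 154 CPM (log2 1.07 ± 0.71).

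Bile acid transport and signalling rose in 6 of 9 genes, also without week 2 sample 1, and 2 were called with all 24 duodenum samples. Fgf15, the hormone by which the bowel restrains hepatic bile acid synthesis, stood at 0.732, 2.22 and 1.77 CPM at day 8. At week 2 it stood at 9.55, 31.1 and 15.1 CPM (log2 3.60 ± 0.79, adjusted p = 0.00368). Abcc2, an apical exporter of conjugates, went from 198, 217 and 221 CPM to 510, 517 and 426 CPM. The basolateral exporter subunits Slc51a and Slc51b rose by 0.83 ± 0.20 and 0.77 ± 0.16. Among genes of vitamin A handling 5 of 12 rose (3 without week 2 sample 1, 1 with all 24 duodenum samples). The list median was 0.09, and 28.0% of all genes were called. Lrat, which stores retinol as ester, led the rises, from 95.7, 83.8 and 117 CPM to 249, 205 and 246 CPM (1.27 ± 0.15). Among 16 ion transport genes 7 rose and 2 fell, a share above that of all genes. The counts were 5 and 1 without week 2 sample 1, and 2 and none with all 24 duodenum samples. Slc9a3, the apical sodium-proton exchanger, went from 117, 104 and 110 CPM to 332, 218 and 262 CPM (1.33 ± 0.19). Kcne3, a potassium channel subunit of chloride-secreting crypt cells, fell from 52.5 to 56.9 CPM to 18.8, 31.1 and 30.0 CPM.

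Arginine and citrulline synthesis, which the suckling bowel performs for the whole body, had 3 of 13 genes higher and 1 lower, a share near the 28.0% of all genes. The count was 2 and 1 without week 2 sample 1, and none and 1 with all 24 duodenum samples, where Cps1 alone was called. Cps1, the mitochondrial entry enzyme of citrulline synthesis, fell from 4324, 4201 and 4089 CPM to 1814, 2691 and 2651 CPM (log2 -0.79 ± 0.15, adjusted p = 0.000968). Ass1, which turns citrulline toward arginine, rose from 196, 167 and 189 CPM to 360, 253 and 268 CPM (0.70 ± 0.19). Aldh18a1, an upstream step from glutamate, rose by 0.44 ± 0.12. Otc stood at 108 to 118 CPM and then at 87.1, 100.5 and 97.5 CPM, which did not pass (-0.23 ± 0.11).

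Cell division genes fell as a block. All 32 listed genes of the cell cycle and DNA replication were tested and all fell, with a median log2 fold change of -1.12. Without week 2 sample 1, the sample with the lowest sum, 29 fell, and with all 24 duodenum samples 19 did. In whole tissue, fewer cells of a type and less RNA per cell cannot be told apart. Mki67, a protein of dividing nuclei, stood at 763, 741 and 705 CPM at day 8 and at 249, 391 and 379 CPM at week 2 (-1.08 ± 0.18). Ccnb1, the mitotic cyclin B1, went from 100.3, 103 and 93.4 CPM to 27.7, 47.3 and 44.8 CPM (-1.27 ± 0.17). Plk1, a mitotic kinase, and Cdc20, which targets cyclin B for destruction, had log2 fold changes of -1.25 ± 0.15 and -1.22 ± 0.15. Cenpa, the histone of centromeres, had -1.19 ± 0.13.

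Promoters of these genes are shown because so many members fell together. RefSeq windows on GRCm38.p6 were matched for 27 of the 32. The CCAAT box, the letters CCAAT in either strand of the 250 bases before the start, was present for 21 of the 27, or in 22 of 28 windows (78.6%), against 33.8% of all windows. The letters TTTGAA of the cell cycle homology region, which can share 1 base with CCAAT on the same strand, were in 8 of 28 windows (28.6%) against 16.0% of all. As all 32 listed genes fell, these shares describe the list and cannot be set against members that did not fall. Whether either set of letters bears on the fall was not tested. Below are 70-base stretches 5′ to 3′ on the gene's strand, with CCAAT or its complement ATTGG in capitals. They lie at chr13:100786524-100786593 (minus strand) for Ccnb1, chr9:70421555-70421624 (minus) for the B2 cyclin gene Ccnb2, chr10:69352931-69353000 (minus) for Cdk1, the kinase both cyclins drive, and chr4:118437344-118437413 (minus) for Cdc20. Ccnb2 and Cdk1 were picked after their values were seen, with log2 fold changes of -1.09 and -1.33.
Ccnb1: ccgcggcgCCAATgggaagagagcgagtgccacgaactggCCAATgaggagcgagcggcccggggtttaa
Ccnb2: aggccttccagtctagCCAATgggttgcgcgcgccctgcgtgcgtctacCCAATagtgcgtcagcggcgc
Cdk1: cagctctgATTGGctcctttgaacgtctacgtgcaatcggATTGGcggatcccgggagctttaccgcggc
Cdc20: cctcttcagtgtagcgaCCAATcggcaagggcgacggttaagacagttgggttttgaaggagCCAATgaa

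Crypt stem cell markers fell less evenly, 7 of 15 lower and 1 higher. Only 2 fell without week 2 sample 1, and 1 with all 24 duodenum samples. Msi1, an RNA-binding protein of progenitors, went from 36.4, 42.3 and 41.0 CPM to 15.3, 25.8 and 21.1 CPM (log2 -0.91 ± 0.18). Lrig1, a brake on growth factor receptors in stem cells, had a log2 fold change of -0.59 ± 0.13. Tnfrsf19, a receptor of crypt cells, rose from 0.948, 1.73 and 1.59 CPM to 2.68, 7.60 and 5.02 CPM (1.87 ± 0.35). The stem cell markers Lgr5 and Olfm4 did not pass. Lgr5 stood at 84.7, 106 and 102 CPM and then at 41.4, 85.9 and 77.1 CPM. Olfm4 stood at 3511, 4368 and 4238 CPM and then at 1630, 3333 and 2922 CPM, so sample 1 was lowest for both.

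Alpha-defensins, the main peptides of Paneth cells, rose as a group. All 16 tested alpha-defensins rose, with a median of 2.63, and all 16 rose without week 2 sample 1 and 14 with all 24 duodenum samples. Defa2 stood at 14.8, 13.9 and 12.4 CPM at day 8 and 77.2, 170.5 and 99.5 CPM at week 2 (log2 3.11 ± 0.26, adjusted p = 2.641e-06). Defa21 and Defa22 had the largest log2 fold changes of the alpha-defensins that met the naming rule, 3.60 ± 0.43 and 3.45 ± 0.41. Alpha-defensin genes are close copies, so the share of reads given to each is uncertain. Lyz1, the Paneth cell lysozyme, went from 51.9, 54.1 and 56.8 CPM to 149, 327 and 234 CPM (2.16 ± 0.23), though reads are shared with its close copy Lyz2, which was not called. Of 9 other Paneth cell genes 4 rose and 1 fell. Itln1 and Ang4, a lectin and a ribonuclease of Paneth granules, rose by 1.70 ± 0.30 and 1.51 ± 0.27. In contrast to the villus genes, week 2 sample 1 was the lowest of its group for Defa2, Lyz1 and Itln1.

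In other secretory lineages, 3 of 15 goblet cell genes rose and 1 fell (2 and 1 without week 2 sample 1). That share is near the 28.0% of all genes. Zg16, a mucus lectin, stood out, from 17.0, 13.4 and 14.0 CPM to 180, 83.7 and 91.3 CPM (log2 3.03 ± 0.45), while the mucin Muc2 did not pass at 110 to 135 CPM and 171 to 204 CPM. Of 21 enteroendocrine genes 2 fell and none rose, a share under the 28.0% of all genes. One was Neurog3, the factor that starts the endocrine lineage in the crypt, from 4.95, 6.16 and 5.18 CPM to 1.57, 2.09 and 2.50 CPM (-1.36 ± 0.24). The other was Cck, the gene of cholecystokinin, a call lost when any of 5 of the 6 samples, all but week 2 sample 1, was left out. Tuft cell genes rose in 5 of 10 (6 without week 2 sample 1, 1 with all 24 duodenum samples), among them Ptgs1, a cyclooxygenase, by 1.28 ± 0.27 and Dclk1 by 0.95 ± 0.22, both at no more than 12.6 CPM. Of the Reg lectins 2 of 7 rose, a share near the 28.0% of all genes. Reg3b, which binds bacterial walls, went from 1.01, 0.698 and 1.17 CPM to 11.6, 8.21 and 5.76 CPM (3.17 ± 0.62). Its relative Reg3g did not pass, at 2.73 to 3.65 CPM and 5.41 to 6.36 CPM.

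Interferon-stimulated genes, the antiviral programme that cells switch on through interferon receptors, rose in 16 of 22 cases with none lower. The median was 0.97, and 14 rose without week 2 sample 1, which had the highest sum, and 8 with all 24 duodenum samples. Ddx58, the gene of the RNA sensor RIG-I, stood at 38.0, 39.9 and 36.9 CPM at day 8 and 93.1, 82.7 and 70.04 CPM at week 2 (log2 1.13 ± 0.13, adjusted p = 2.041e-05). Ifit2, which blocks translation of foreign RNA, went from 73.7, 83.2 and 91.3 CPM to 347, 207 and 178 CPM (1.59 ± 0.22). Ifit1, a member of the same family, went from 116, 112 and 128 CPM to 336, 238 and 231 CPM (1.21 ± 0.19), and Zbp1, a sensor of Z-form nucleic acids, rose by 1.72 ± 0.24.

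The interferon-stimulated response element, searched as GAAA, any 2 bases and GAAA on both strands of the 250 bases before the start, was in 5 of the 13 RefSeq windows of genes that rose (38.5%), against 2.98% of all windows. The 4 listed genes with a window that were not called, Gbp2, Oas1a, Bst2 and Rsad2, all held it too. Stretches of 70 bases from 4 of the genes that rose are printed to show it, with the letters or their complement in capitals, and copies overlap one another in Isg15 and Gbp3. They lie at chr19:34640777-34640846 (plus strand) for Ifit1, chr19:34583365-34583434 (plus) for Ifit3, chr4:156200835-156200904 (minus) for Isg15, a ubiquitin-like protein, and chr3:142559974-142560043 (plus) for the guanylate-binding protein gene Gbp3. Ifit3, Isg15 and Gbp3 were picked after their values were seen, with log2 fold changes of 1.34, 0.99 and 1.41.
Ifit1: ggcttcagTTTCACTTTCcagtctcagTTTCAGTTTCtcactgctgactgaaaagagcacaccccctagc
Ifit3: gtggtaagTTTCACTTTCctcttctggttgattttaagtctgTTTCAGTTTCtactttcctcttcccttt
Isg15: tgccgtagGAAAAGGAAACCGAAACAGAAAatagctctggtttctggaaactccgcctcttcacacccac
Gbp3: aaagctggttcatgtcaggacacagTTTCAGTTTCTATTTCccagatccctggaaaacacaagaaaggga

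Genes of antigen presentation and of macrophages rose. MHC class II, by which cells show peptides to helper T cells, had 7 of 9 genes higher, also without week 2 sample 1, with a median of 1.53 (4 with all 24 duodenum samples). H2-Aa, one of its chains, stood at 5.30, 5.52 and 6.93 CPM at day 8 and 23.95, 21.2 and 20.7 CPM at week 2 (log2 1.92 ± 0.29). Macrophage markers rose in 9 of 14 cases with none lower (7 without week 2 sample 1, 5 with all 24 duodenum samples). Adgre1, the F4/80 antigen, went from 0.668, 0.550 and 0.516 CPM to 4.65, 2.38 and 2.87 CPM (2.53 ± 0.51). C1qa and C1qb, complement chains that macrophages secrete, rose by 2.18 ± 0.42 and 1.92 ± 0.37. Summed over the list, macrophage markers stood at 148 to 157 CPM at day 8 and 249 to 335 CPM at week 2. That sum rests largely on Mertk and Csf1r, with 25130 and 17330 counts over the 6 samples. Adgre1 and C1qa had 408 and 888. Mertk and Csf1r rose by 0.93 and 0.76 on the log2 scale.

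Lymphocyte and granulocyte markers moved less, and mast cell proteases fell. Of 15 T cell genes 2 rose, a share under the 28.0% of all genes. They were Trac, by 1.08 ± 0.23 on the log2 scale, and Cd4, at no more than 2.54 CPM, by 1.63 ± 0.42, the latter 2.31 without day 8 sample 3. None of the 10 tested B and plasma cell genes and none of 8 neutrophil genes was called, nor any of 9 tested genes of inducible epithelial defence. Of 10 mast cell genes 3 fell, a share near the 28.0% of all genes, and they were proteases. Mcpt1, a protease of mucosal mast cells, stood at 35.8, 23.5 and 20.1 CPM and then at 5.40, 4.90 and 5.71 CPM (log2 -2.28 ± 0.35, adjusted p = 0.000217). Mcpt2 is a close copy that shares reads and fell from 24.3, 16.9 and 14.1 CPM to 3.64 to 4.47 CPM. Members that were not called ran from -2.79 for Cma1 to 0.74 for Hdc on the log2 scale. Among them Cpa3 had -1.88, Ms4a2 -1.92 and the mast cell receptor gene Kit -0.29, all named after their values were seen. The list median was -1.8, and the list sum went from 59.5 to 79.2 CPM to 22.2 to 27.9 CPM.

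Endothelial genes rose in 9 of 10 cases, with a median of 1.59, from low levels. The count was 9 without week 2 sample 1 and none with all 24 duodenum samples. Flt4, the growth factor receptor of lymphatic vessels, stood at 0.452, 0.444 and 0.404 CPM at day 8 and 2.15, 2.34 and 2.19 CPM at week 2 (log2 2.38 ± 0.26, adjusted p = 1.474e-05). Kdr, the main receptor of blood vessels, went from 2.02, 3.30 and 3.65 CPM to 5.68, 10.5 and 10.6 CPM. The basement membrane collagens Col4a1 and Col4a2 rose by 1.40 ± 0.33 and 1.27 ± 0.24, among 6 of 22 matrix genes that rose, a share near the 28.0% of all genes and none with all 24 duodenum samples. Endothelial markers summed to 17.1 to 22.3 CPM at day 8 and 38.1 to 48.5 CPM at week 2, and matrix genes to 64.8, 99.7 and 151 CPM and then 185, 157 and 217 CPM. How the share of mucosa and wall in each piece bears on these values was not tested.

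Regulators of the stage moved in part. Of 15 glucocorticoid response genes 5 rose and 1 fell (5 and none without week 2 sample 1). Sgk1, a kinase induced by the hormone, stood at 42.1, 34.6 and 44.2 CPM at day 8 and 339, 205 and 253 CPM at week 2 (log2 2.75 ± 0.31, adjusted p = 3.118e-05). Tsc22d3, the leucine zipper protein GILZ, went from 28.7, 28.9 and 33.0 CPM to 99.3, 91.9 and 80.1 CPM (1.61 ± 0.14), and Klf9 rose by 0.83 ± 0.11. The receptor gene Nr3c1 and the chaperone Fkbp5 were not called (0.13 and -0.75), so not all genes of the list moved alike. Fos, Zfp36 and Egr1, immediate early genes outside the list, were picked after their values were seen. Fos went from 3.75, 4.67 and 3.95 CPM to 45.3, 24.3 and 23.6 CPM (2.94 ± 0.27), Zfp36 rose by 1.04 ± 0.17 and Egr1 was not called (0.35 ± 0.33).

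Clock genes rose in 6 of 17 cases and 1 fell (6 and none without week 2 sample 1). Per2, part of the negative limb of the clock, stood at 38.5, 38.5 and 39.5 CPM and then at 75.3, 77.3 and 74.3 CPM (log2 0.99 ± 0.14), with almost no spread within either age. Npas2 of the positive limb rose by 1.11 ± 0.19, while Nr1d1 stayed at 3.62 to 4.83 CPM and 3.13 to 5.61 CPM. Hours of dissection are not given in the sources used here. Of 18 intestinal transcription factors 4 rose and none fell, a share under the 28.0% of all genes. Maf went from 228, 216 and 238 CPM to 601, 483 and 475 CPM (1.23 ± 0.14) and Klf4, a factor of differentiated villus cells, rose by 1.39 ± 0.17. Of 19 nuclear receptors and coactivators 7 rose and 2 fell, a share above the 28.0% of all genes. The counts were 6 and 1 without week 2 sample 1, and 3 and none with all 24 duodenum samples. Among signals, Hbegf of the EGF family rose by 0.98 ± 0.16, Wnt4 by 1.25 ± 0.27 and Bmp2 by 1.20 ± 0.27. The imprinted growth genes had 2 of 17 higher and 3 lower, a share near the 28.0% of all genes. Cdkn1c, an inhibitor of cell division, went from 74.7, 65.4 and 75.1 CPM to 235, 123 and 143 CPM (1.25 ± 0.25), while Igf2 and H19 were not called.

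Among called genes that did not overlap between the ages and reached a mean of 5 CPM, the 3 largest log2 rises were of Cyp3a genes, which encode cytochrome P450 enzymes of drug and steroid metabolism. Cyp3a41a, a cytochrome P450 gene, stood at 2.00, 2.41 and 2.40 CPM at day 8 and 93.6, 30.9 and 37.6 CPM at week 2, a log2 fold change of 4.60 ± 0.46 (adjusted p = 3.015e-05). Cyp3a41b and Cyp3a16 rose by 5.23 ± 0.84 and 4.42 ± 0.58, the former 6.25 without day 8 sample 3 and the latter 3.78 without week 2 sample 1. All 3 are close copies, so reads may be divided between them in error. Cyp3a25 of the same cluster rose by 1.78 ± 0.26 from 31.1 to 38.6 CPM. Conjugation enzymes split by family, with 7 of 24 higher and 5 lower (5 and 4 without week 2 sample 1). Sulfotransferases rose, Sult1d1 from 107, 102 and 112 CPM to 312, 244 and 233 CPM (1.33 ± 0.17) and Sult1b1 by 1.05 ± 0.15. All 5 that fell were transferases of glutathione or close to them: Gstm1, Gstm2, Gstm3, Gstp1 and Mgst2. Gstm3 went from 50.8, 35.0 and 39.4 CPM to 13.2, 13.4 and 12.4 CPM (-1.66 ± 0.17, adjusted p = 8.083e-06). Gpx2, the glutathione peroxidase of the gut epithelium, fell from 150, 133 and 136 CPM to 35.1, 55.1 and 52.3 CPM (-1.53 ± 0.14).

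The EGF family had 4 of 11 genes higher, a share above the 28.0% of all genes. Without week 2 sample 1 it had 2, near the 18.3% of all genes called there, and 1 with all 24 duodenum samples. Members of several further lists were called at shares near or under the 28.0%. Of these, 3 of 11 Toll-like receptors, 3 of 11 claudins and 4 of 15 cytochrome P450 genes rose, and of 19 fucosyl and sialyl transferases 2 rose and 3 fell. Toll-like receptors, claudins and cytochrome P450 genes that rose numbered 1, 0 and 2 with all 24 duodenum samples. Of 12 enteric neuron and glia genes 2 rose, and none of 7 red blood cell genes was called.

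Other large falls were single genes. Etv4, a transcription factor of growth factor signalling, stood at 11.6, 10.1 and 11.6 CPM at day 8 and 0.787, 1.08 and 1.67 CPM at week 2 (log2 -3.17 ± 0.48). Acacb, the acetyl-CoA carboxylase that restrains fatty acid oxidation, went from 8.25, 7.42 and 7.78 CPM to 1.93, 1.55 and 1.69 CPM (-2.15 ± 0.29). Gatm, the first enzyme of creatine synthesis, fell from 51.7, 42.4 and 52.6 CPM to 18.9, 14.4 and 14.2 CPM (-1.60 ± 0.20), and Rims4 had -1.68 ± 0.25. Gal3st2b, a sulfotransferase of galactose, rose from 5.32, 4.74 and 3.34 CPM to 66.8, 28.3 and 25.7 CPM (3.20 ± 0.42).

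**Figure D3:**
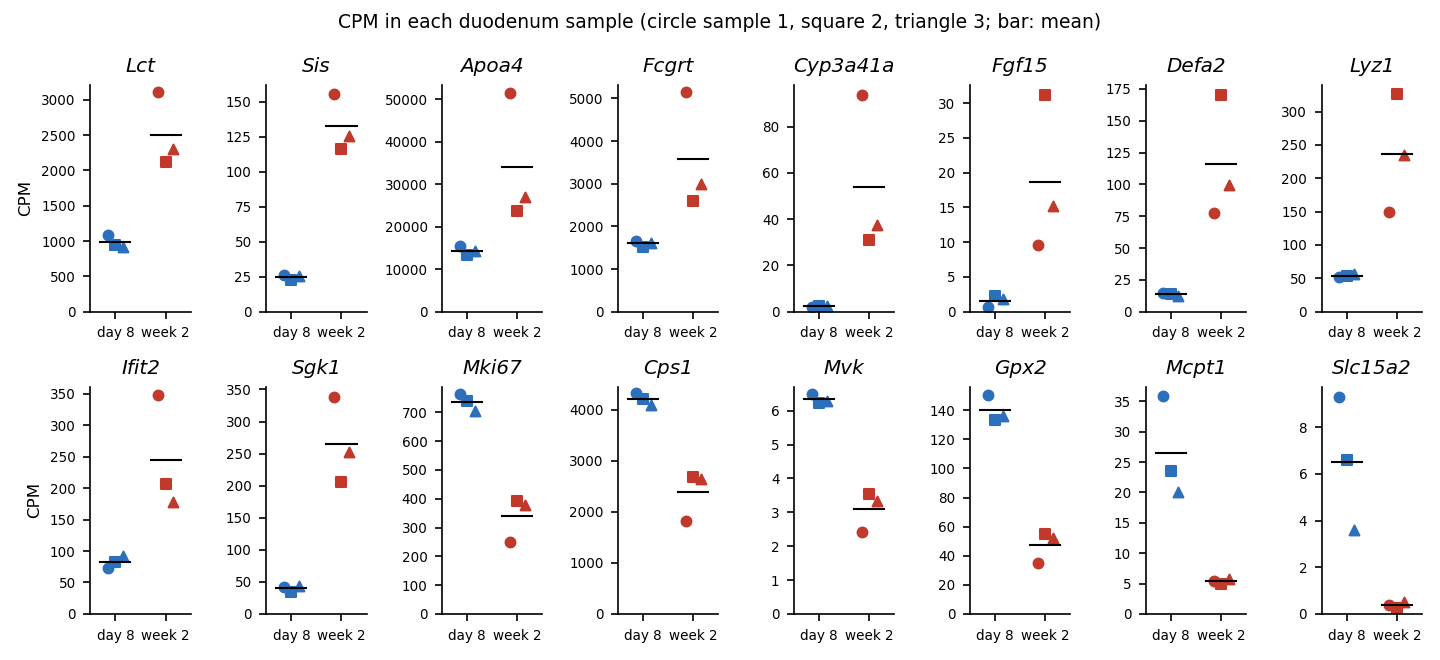
CPM (vertical axes, from 0) of 16 genes in each duodenum sample at day 8 (blue) and week 2 (red), with sample numbers as marker shapes and group means as bars. The ages do not overlap in any panel. Week 2 sample 1 is highest for Lct, Apoa4, Fcgrt and Cyp3a41a, and lowest for Defa2, Lyz1, Mki67 and Cps1.

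The step was set against the ages on either side, as means ± SD with n = 3 except day 6 with n = 2. Lct was higher at birth and at day 2 (2356 ± 420 and 2758 ± 189 CPM) than at day 8 (983 ± 84.5 CPM), and at week 2 stood at 2509 ± 527 CPM. Fcgrt had the same course, with 3218 ± 112 CPM at day 2, 1600 ± 68.9 CPM at day 8 and 3576 ± 1372 CPM at week 2, then 116 ± 33.7 CPM at week 3. Dab2 followed it, from 310 ± 8.59 CPM at day 2 to 124 ± 12.7 and 479 ± 91.2 CPM, as did Sgk1, from 424 ± 66.0 CPM at day 0 to 40.3 ± 5.08 and 266 ± 67.9 CPM. All 4 genes thus had a lower mean at day 8 than at an earlier age and at week 2. Mki67 ran the other way, with its highest mean at day 8 (736 ± 29.6 CPM), against 243 ± 15.7 CPM at day 2 and 339 ± 78.6 CPM at week 2. Mcpt1 peaked at day 8 too, at 26.5 ± 8.29 CPM. Cyp3a41a was high at week 2 alone (54.0 ± 34.4 CPM), with 6.82 ± 3.93 CPM at week 3 and 0.472 ± 0.111 CPM at week 4. These courses are descriptions, since the ages share the day 8 and week 2 samples.

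**Figure D4:**
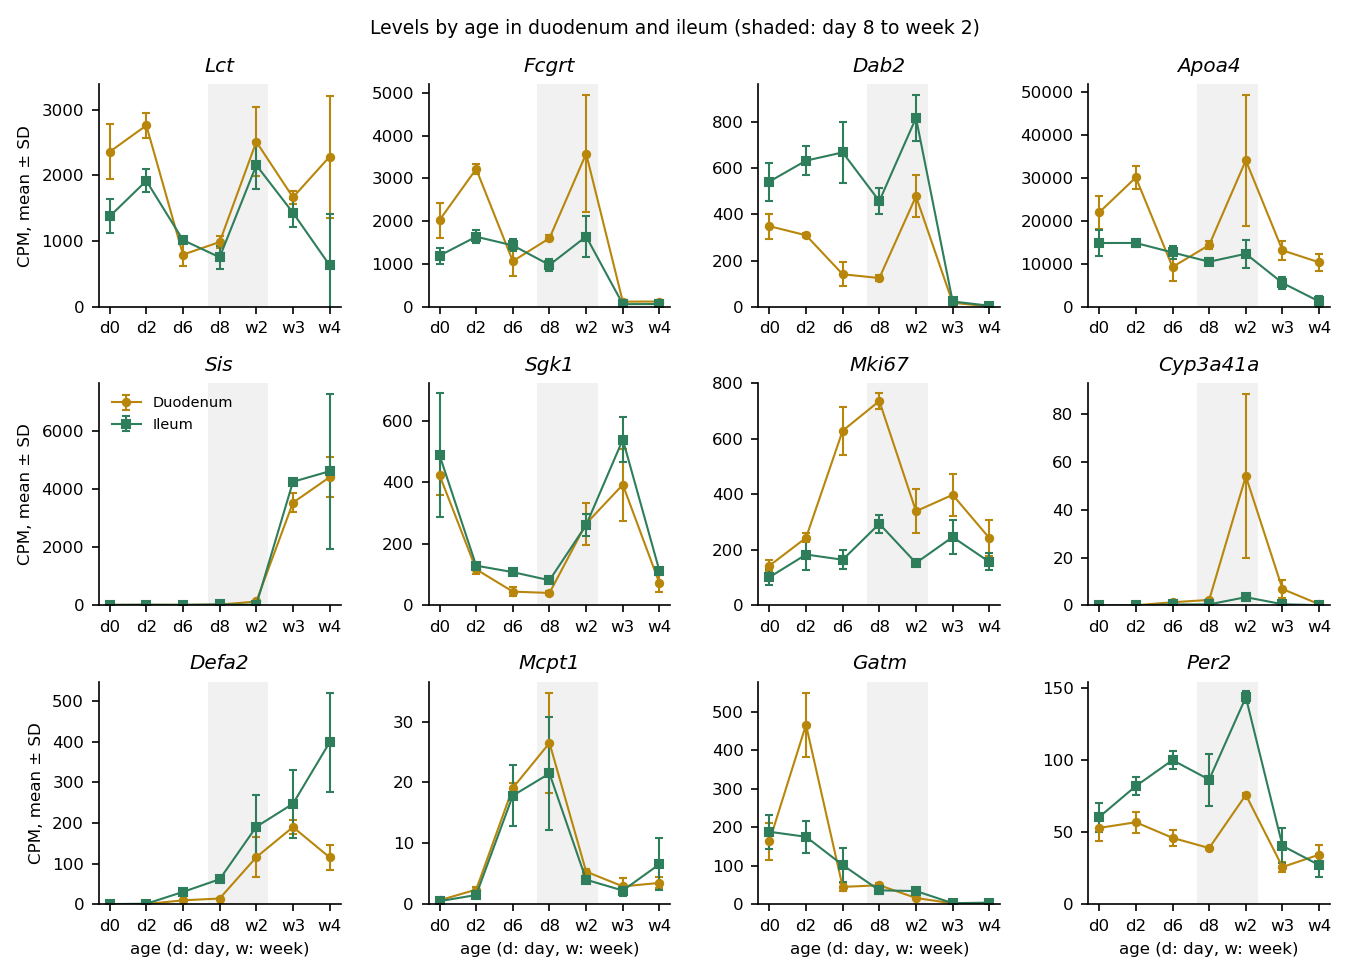
Mean CPM ± SD (vertical axes, from 0) of 12 genes by age in duodenum (circles) and ileum (squares), with the step from day 8 to week 2 shaded and n = 3 except day 6 (n = 2). Lct, Fcgrt, Dab2 and Apoa4 dip at day 6 to day 8 in the duodenum and are higher again at week 2, and Cyp3a41a has a single high age.

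The ileum at the same ages showed which changes differed along the bowel. In a fit over both regions 3037 of 21617 genes (14.0%) changed in the ileum, 8.89% higher and 5.16% lower. The difference between the steps was itself called for 158 genes (0.731%), 58 (0.268%) with the higher change in the duodenum and 100 (0.463%) with the lower. With DESeq2 size factors inside edgeR, 54 were higher and 43 lower. That count ran from 3 to 703 over the alternatives, so it is the least steady of the counts given. Sis rose in the duodenum and was not called in the ileum, where it stood at 44.8, 20.9 and 27.7 CPM and then at 17.1, 21.7 and 23.0 CPM. The difference of its log2 fold changes was 3.01 ± 0.43 (adjusted p = 0.00073). Ppef1, a phosphatase gene, rose in the duodenum from 0.280 to 0.402 CPM to 4.08, 1.26 and 3.78 CPM. It fell in the ileum from 6.55, 8.03 and 10.02 CPM to 1.60, 0.443 and 1.01 CPM (difference 6.24 ± 0.73, adjusted p = 3.6e-05). Fabp2 was not called in the duodenum and fell in the ileum from 3404, 1519 and 2047 CPM to 723, 531 and 802 CPM (difference 2.07 ± 0.35). Pid1 rose in the duodenum and fell in the ileum (difference 1.75 ± 0.31). No member of the cell cycle, cholesterol, alpha-defensin, interferon, suckling uptake or lysosomal lists had a called difference. In the ileum 21 of 32 cell cycle genes, 8 of 25 cholesterol genes, 10 of 16 alpha-defensins, 4 of 22 interferon-stimulated genes and 13 of 30 lysosomal genes were called, each in the direction of the duodenum. Endothelial genes were not called in the ileum (0 of 10, median -0.06, by edgeR). The difference between the steps was called for only 1 of the 10, Flt4, at 2.52 ± 0.50.

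**Figure D5:**
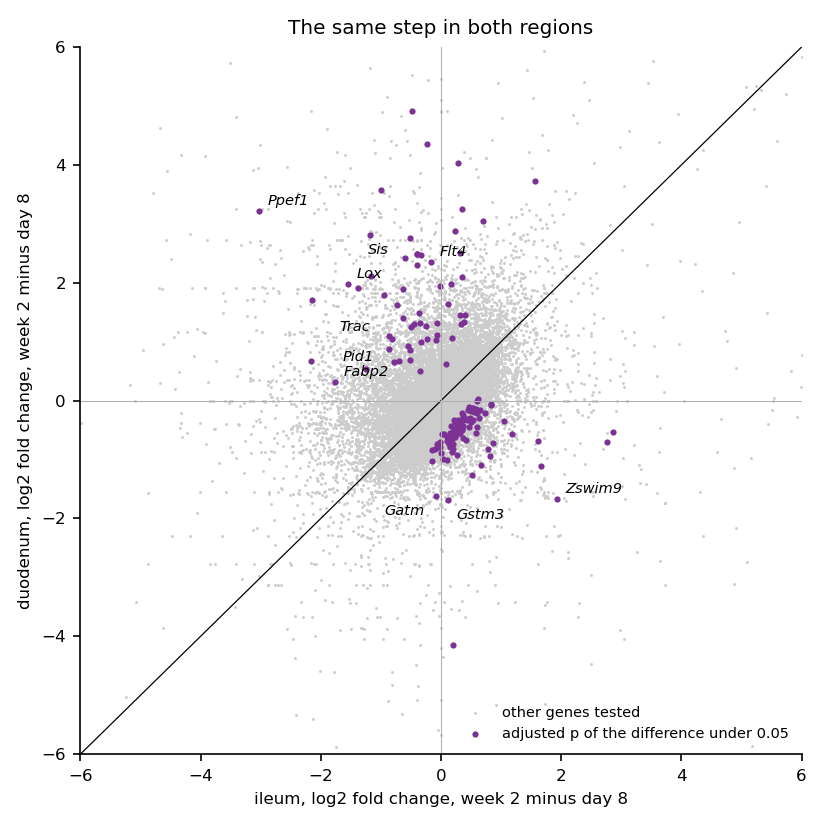
Log2 fold change from day 8 to week 2 in ileum (horizontal axis) and duodenum (vertical axis) for the genes of the fit over both regions, of which 52 lie outside the axes. Purple points are the 158 genes whose step differed between regions, and the diagonal marks equal change. Ppef1 lies at the upper left and Zswim9 at the lower right.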

How the data were processed

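Estimated counts per gene were deposited by the authors for 48 samples. STAR 2.6.1d, Salmon 0.14.2, DESeq2 1.30.1 and mm10 are named by the submitters' processing notes, without roles, and the annotation release is not given in the sources used here. The table's values were already whole numbers. A normalized signal deposited by the authors for each region, 40 columns in all, equals those counts divided by 1 factor per column. It supplied the symbols (51106 of 54532 IDs). Estimated counts divide reads among similar transcripts by a model, so close copies are uncertain.

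Main tests used edgeR 4.0.16 in R 4.3.3 (robust quasi-likelihood, TMM scaling, filterByExpr, Benjamini-Hochberg) on the 20 duodenum samples in the authors' table. That table leaves out the day 4 samples and day 6 sample 3. Earlier results on these data showed the latter to go against its region label. The region fit used 40 samples. CPM values are TMM-scaled over those 40, standard errors are the fold change over the root of F, and a call is an adjusted p under 0.05. Alternatives included DESeq2 1.42.0, limma 3.58.1 on the deposited normalized signal (log2, after adding 1 or 0.1), other filters and samples left out. The procedure was tested on simulated data.

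Named genes were the 12 largest rises and falls (non-overlapping, a group mean of at least 5 CPM), up to 4 called members of each of 59 lists by smallest adjusted p, a fixed panel of maturation genes, and the 5 smallest p of the difference between regions. The members and lists were chosen with earlier results of these data known. The text describes part of the genes that met the rule, and some are not reported here. Other genes, such as Kit, Nr3c1, Fkbp5, Lyz2 and the glutathione transferases besides Gstm3, were named after their values were seen. Sequences are RefSeq promoter windows on GRCm38.p6.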

Additional observations from a re-analysis of the deposited data

Results flagged for a closer look

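Among named genes, 12 had a change from day 8 to week 2 that differed between duodenum and ileum by the edgeR test of the difference. Values are the log2 change in the duodenum minus that in the ileum. Those with the higher change in the duodenum were Ppef1 (6.24), Lox (3.53), Sis (3.01), Flt4 (2.52), Fabp2 (2.07), Trac (1.87), Pid1 (1.75), Sult1b1 (1.1) and Sult1d1 (0.968). Those with the lower change were Zswim9 (-3.6), Gstm3 (-1.81) and Gatm (-1.55). For Zswim9 the ileal rise lay mostly in 1 sample, with 5.27, 10.1 and 32.0 CPM at week 2 against 3.08 to 4.79 CPM at day 8. Lox, a collagen cross-linking enzyme, was scarce in both regions, at 0.517 to 4.18 CPM in the duodenum and 0.293 to 4.13 CPM in the ileum.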

How the results depend on the processing

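Of the 186 called genes in the set chosen by the naming rule, none changed direction under any alternative. They were called, and mostly chosen, from these same samples, so this is not separate support. Those still called numbered 186 with DESeq2 size factors in edgeR, 184 with the replicate block, 181 with an index of sex as covariate, 167 to 179 with 1 sample left out, 107 with all 24 duodenum samples and 103 with all 48. Over all 5771 calls the share kept was lower, 23.4% with all 24 duodenum samples and 26.4% with all 48. The count of 5771 became 1348 with all 24 duodenum samples, 1528 with all 48 and 3818 to 5487 with 1 sample left out, lowest without week 2 sample 1. The count of 3037 in the ileum became 1990 with no low-count filter, 417 with all 48 samples and 627 to 3225 with 1 sample left out, lowest without ileum day 8 sample 1. The 158 differences between regions became 97 with the other size factors, 46 with no low-count filter, 703 with only the compared groups, 3 with all 48 samples, 601 with DESeq2, 430 with the replicate block and 11 to 167 with 1 sample left out. The cause was not tested.

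Same-numbered samples correlated in their deviations from the group means at 0.207, 0.245 and -0.0826 (12145 genes). Only 2 of the 3 pairs exceeded 0.1, so the numbers were not taken to pair the samples. Not every sample correlated best with its own number. The replicate block gave 5498 calls in the duodenum.

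Reversals were seen in 2 named genes that were not called. Pdx1 was at 0.005222 with the sex index and ranged from -0.5566 to 0.2993 with 1 sample left out. Nr1d1 was at 0.01355 with DESeq2 size factors, 0.05951 with no filter, 0.01211 with only the compared groups, 0.1211 with the sex index and 0.01894 with DESeq2, and ranged from -0.2528 to 0.2252 with 1 sample left out. Depth of at least 27547646 counts per sample left genes under 1 CPM resting on few reads.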

Other observations

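Ada and Akp3, an adenosine deaminase and an alkaline phosphatase gene of the mature duodenum, were picked after their values were seen. Their week 2 samples differed among themselves. Sample 1 was highest for both, and sample 2 was lowest for both and below every day 8 sample. Ada stood at 9.62 to 14.7 CPM at day 8 and at 68.7, 6.91 and 13.6 CPM at week 2, against 281 ± 133 CPM (SD, n = 3) at week 3. Akp3 stood at 2.51 to 4.12 CPM at day 8 and at 30.4, 0.828 and 15.2 CPM at week 2, against 925 ± 506 CPM at week 3. Neither was called between the ages (adjusted p = 0.169 and 0.127 by edgeR). Sis, in contrast, was at 116 to 156 CPM in all 3 week 2 samples.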
